A study of Homo sapiens with 20 samples.

Results

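The 252 sites described here are places on chromosomes 1 to 22 and X where M14 cells gained a STAG1 peak after STAG2 knockdown although the STAG2 peak itself was kept. They were chosen by peak presence alone, which is the readout of the experiment. The 4 STAG1 peak lists were merged into 117507 union sites, and a site was taken if both STAG2-KD lists and neither WT list held a STAG1 peak there and if it overlapped, by at least 1 bp, a peak in all 4 STAG2 lists. STAG1 was gained in this way, in both replicates and whatever STAG2 did, at 4591 union sites (3.91%). The 252 sites are 5.49% of those and 0.214% of the union. STAG1 and STAG2 presence at these sites is therefore given as a description, with no test, while CTCF, SMC1A, genomic position and sequence were not used in the choice.

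M14, an established line of human melanoma, was used throughout. The cells carried a doxycycline-inducible shRNA against STAG2 and had been selected with puromycin, so both conditions share the same construct. WT libraries came from cells without doxycycline, and STAG2-KD libraries from cells given doxycycline, for 5 days according to the labels of replicate 1. The experiment was ChIP-seq with 4 antibodies (STAG1, STAG2, CTCF and SMC1A), with 2 WT and 2 STAG2-KD libraries each, which gave 16 peak lists. The 2 replicates differ in chromatin extraction, size selection and peak threshold, and nothing in the labels says whether their cells came from separate inductions. WT and STAG2-KD are therefore compared within a replicate as well as across both.

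Cohesin is a ring-shaped complex that extrudes chromatin loops and holds sister chromatids together. SMC1A is part of the core of every somatic cohesin ring, whereas STAG1 and STAG2 are alternative subunits, each ring carrying either of them. CTCF is a zinc finger protein that binds a long, well-defined motif and stops cohesin there, and cohesin with STAG2 is also known at enhancers and promoters that lack CTCF.

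Sequences of 201 bases around the STAG1 summit are shown for 8 sites, since the sites fell into groups that differ in DNA sequence as well as in CTCF. They are hg19 (GRCh37) reference sequence, plus strand, 5' to 3', and none of these windows overlaps an annotated exon. The first 3 carry a match to the CTCF core motif, in capitals, and had CTCF peaks in all 4 CTCF lists. They lie at chr3:127125162-127125362, which is intergenic, at chr17:18086834-18087034, in the promoter of ALKBH5, an RNA demethylase, and at chr2:99347267-99347467, in the promoter of MGAT4A, a glycosyltransferase. Only 4 of the 252 sites held such a match.
Intergenic site on chromosome 3: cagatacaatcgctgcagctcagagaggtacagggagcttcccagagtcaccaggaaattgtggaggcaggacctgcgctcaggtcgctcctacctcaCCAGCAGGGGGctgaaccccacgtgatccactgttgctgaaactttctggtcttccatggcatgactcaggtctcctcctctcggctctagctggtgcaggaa
ALKBH5 promoter: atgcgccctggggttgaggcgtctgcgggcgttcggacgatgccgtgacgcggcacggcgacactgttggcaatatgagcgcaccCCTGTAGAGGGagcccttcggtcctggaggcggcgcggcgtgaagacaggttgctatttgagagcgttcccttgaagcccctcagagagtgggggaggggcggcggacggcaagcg
MGAT4A promoter: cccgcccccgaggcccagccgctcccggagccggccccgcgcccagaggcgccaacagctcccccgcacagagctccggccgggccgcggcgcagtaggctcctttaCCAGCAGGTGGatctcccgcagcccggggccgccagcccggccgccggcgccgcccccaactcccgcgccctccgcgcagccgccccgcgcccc

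The next pair had CTCF peaks in all 4 lists but no match to the core motif, which was the common case. Both are GC-rich promoters with a GC box, the binding sequence of SP-family factors, in capitals. They lie at chr6:138482844-138483044, near the start of ARFGEF3, and at chr20:60813695-60813895, near the start of OSBPL2, a lipid-binding protein gene.
ARFGEF3 promoter: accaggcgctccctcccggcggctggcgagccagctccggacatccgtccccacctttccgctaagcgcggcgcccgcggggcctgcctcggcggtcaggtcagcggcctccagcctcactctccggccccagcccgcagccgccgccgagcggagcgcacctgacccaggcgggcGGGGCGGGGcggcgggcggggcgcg
OSBPL2 promoter: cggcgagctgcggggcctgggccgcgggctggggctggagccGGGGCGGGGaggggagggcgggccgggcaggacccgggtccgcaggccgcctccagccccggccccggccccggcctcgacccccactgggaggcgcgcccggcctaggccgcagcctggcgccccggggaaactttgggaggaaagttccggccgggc

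The last 3 had no CTCF peak in any list and carry TGANTCA, the core of the AP-1 motif, in capitals. They lie in introns, at chr7:19600156-19600356 in a long noncoding RNA gene, at chr2:112914243-112914443 in FBLN7, and at chr10:99302996-99303196 in UBTD1, where there are 2 matches.
Chromosome 7 intron: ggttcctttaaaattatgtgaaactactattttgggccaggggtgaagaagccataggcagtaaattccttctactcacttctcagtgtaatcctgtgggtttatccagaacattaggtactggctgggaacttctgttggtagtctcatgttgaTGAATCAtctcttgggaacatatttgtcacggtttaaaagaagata
FBLN7 intron: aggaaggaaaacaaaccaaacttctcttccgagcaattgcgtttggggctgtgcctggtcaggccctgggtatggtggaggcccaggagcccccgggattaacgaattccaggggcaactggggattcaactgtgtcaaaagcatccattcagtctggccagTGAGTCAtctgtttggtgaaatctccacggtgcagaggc
UBTD1 intron: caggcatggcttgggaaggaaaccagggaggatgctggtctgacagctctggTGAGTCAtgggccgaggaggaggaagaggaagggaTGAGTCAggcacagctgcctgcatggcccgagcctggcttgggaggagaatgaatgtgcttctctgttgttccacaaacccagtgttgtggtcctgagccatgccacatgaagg

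The lists held 58418 to 91489 peaks on these chromosomes in replicate 1 and 98437 to 150282 in replicate 2. Mean fragment coverage of the genome, solved from the fold and the p-value of each peak, was 0.896 to 2.08 in replicate 1 and 2.08 to 3.98 in replicate 2. STAG2 peaks, the check of the knockdown, numbered 79048 (WT) and 58418 (STAG2-KD) in replicate 1, and 118984 and 106135, in that order, in replicate 2. The WT STAG1 libraries were slightly deeper than the STAG2-KD ones, with a coverage of 2.08 against 1.79 in replicate 1 and 3.98 against 3.62 in replicate 2.

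The gained STAG1 peaks were weak. Their fold enrichment at the summit over the background expected from input had a median of 4.34 in replicate 1, with a range of 2.60 to 8.49, and of 3.07 in replicate 2, with a range of 1.68 to 6.44. These values correspond to a median of 14 fragments at the summit (8 to 31) in replicate 1 and of 20 (13 to 42) in replicate 2. At the 44566 sites where STAG1 and STAG2 were listed in all 8 STAG lists, called constant sites here, the STAG1 medians in STAG2-KD were 25.2 and 14.7. Over all STAG1 sites gained in both replicates they were 4.30 and 3.10, so weak STAG1 was common to gained sites. Ranked by p-value within their own list, where 100 is the strongest peak, the gained STAG1 peaks had a median percentile of 17.6 and 30.8. The 252 sites were also narrower than constant sites, with a median width of 404.5 bp against 988 bp, although constant sites merge more peaks. They were wider than gained STAG1 sites in general, whose median was 312 bp, and the union had 565 bp.

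STAG2 was weak at the same places and, at sites chosen for keeping it, moved little. In replicate 1 its median fold enrichment was 4.87 without and 4.72 with the knockdown, and in replicate 2 these medians were 4.37 and 4.63, differences far smaller than the range over sites. A depth-independent level (summit fragments divided by the mean fragment coverage of the list) gave a median log2 ratio of STAG2-KD to WT of −0.18 and −0.06 over the 252 sites. At constant sites it was −0.42 and −0.13. STAG2 was lower in STAG2-KD in both replicates at 124 of the 252 sites (49.2%) and higher in both at 77 (30.6%), whereas 71.0% of constant sites were lower in both and 7.85% higher in both. The rule bears on this contrast, as it keeps only sites listed for STAG2 in both STAG2-KD lists. A weak site whose STAG2 fell under the listing limit left the set, while stronger constant sites could fall and stay listed. In STAG2-KD replicate 1 the STAG2 median was 16 fragments at the 252 sites and 46 at constant sites.

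**Figure D1:**
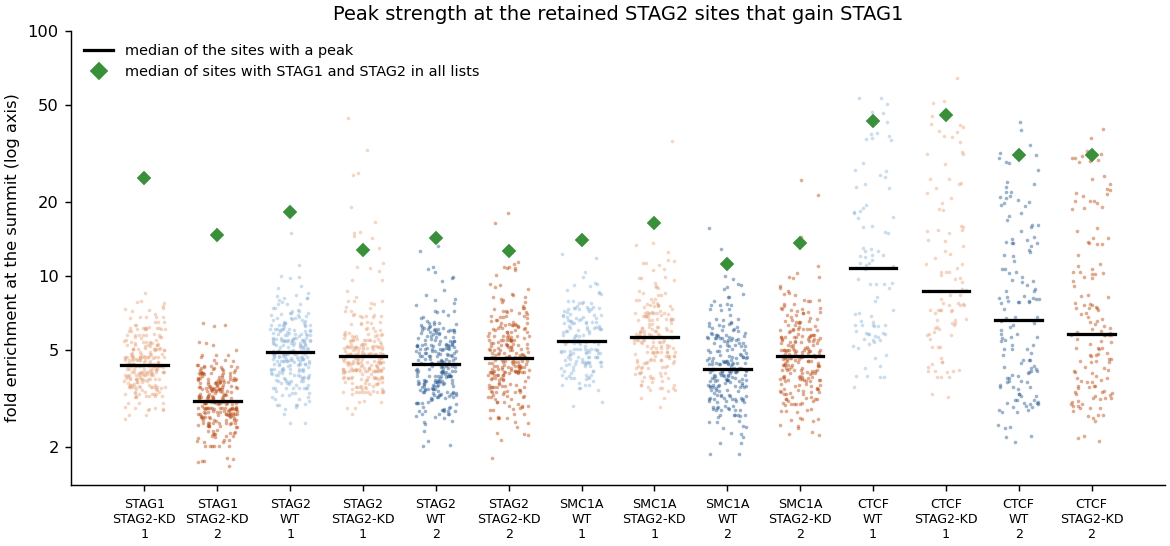
Fold enrichment at the summit (log axis) of every peak at the 252 sites, by antibody, condition and replicate; each point is 1 site with a peak in that list, black lines are medians and green diamonds are medians of constant sites. The STAG1 and STAG2 medians lie under the diamonds in all 6 lists shown (for example 4.34 against 25.2 for STAG1 in STAG2-KD replicate 1), while CTCF points reach 64.3.

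A site without a WT peak is a site under the WT threshold, and the size of the step over that threshold can be computed. It is a description only, since the same STAG1 lists chose the sites and sites picked in this way show a step through counting noise as well. At the local background taken for the 252 sites a WT peak would have needed a median of 11 fragments in replicate 1 and 14 in replicate 2. The STAG2-KD level, scaled to the WT depth, was a median of 16.26 and 22.03 fragments, and at that level 230 and 250 of the 252 sites would have been listed in WT. At the other 22 and 2 sites even the STAG2-KD level would not have been listed. The ratio of the STAG2-KD level to the WT listing limit had a median of 1.42-fold in replicate 1 (quartiles 1.25 and 1.65) and 1.73-fold in replicate 2 (1.49 and 2.00). It exceeded 2-fold at 27 and 67 sites. The WT STAG1 level and the WT STAG1 background at these sites are not in the lists. Divided by the lowest background of its list, the median background here was 1.21 and 1.56 in the STAG2-KD STAG1 lists. In the WT STAG2 lists it was 1.47 and 1.71. A higher WT background would raise the listing limit and lower these ratios.

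Few sites met the rule in both replicates. Of the 4039 union sites that met it in the lists of replicate 1, 252 met it in replicate 2 as well, and 3644 (90.2%) had a STAG1 peak in both lists of replicate 2. The STAG1 gain itself was repeated in replicate 2 at 257 of them (6.36%). Of the 6491 that met it in replicate 2, 4578 (70.5%) had no STAG1 peak in either list of replicate 1. At 1881 of them (29.0%) the STAG1 gain was repeated in replicate 1, but only 252 also had both STAG2 peaks there. With union sites formed from 1 replicate alone, 4916 sites (replicate 1) and 6546 (replicate 2) met the rule, and with a −log10 q of at least 5 asked of every list 570 did. Depth, threshold and protocol differ between the replicates, and their part in this difference cannot be told apart.

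Some sites met or missed the rule narrowly. Just inside it, a site 166 kb from PCSK2 had STAG1 folds of 3.23 and 3.24 with 8 and 15 fragments, the promoter of MLST8, a subunit of the mTOR complexes, had 3.53 and 1.74, and the promoter of FURIN, a proprotein convertase, had 2.83 and 2.85. Just outside, 653 gained sites had STAG2 in 3 lists only, the strongest being in PTPRN2 (STAG1 folds 10.4 and 5.42), at the KLK2 start (8.61 and 6.07) and in PSG1 (10.1 and 4.83). A further 3653 sites had STAG2 in all lists and STAG1 in 3, and for 3642 of these the WT peak was in replicate 2. The strongest of them, 31.5 kb from RALGPS2, had STAG1 folds of 31.7 and 11.2 in STAG2-KD and was listed at 14.1 in WT replicate 2. Of these 3653 sites, 45.5% were at promoters, 25.2% had no CTCF in any list and 69.1% had SMC1A in all lists.

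Among the 10 strongest STAG1 gains, 5 lay between genes, 4 in introns and 1 in an exon, of MTR, the methionine synthase gene. An intergenic site at chr12:98726399-98726836, 183 kb from TMPO, had STAG1 folds of 7.39 and 6.28 and no SMC1A peak in any list. The chromosome 7 intron printed above had STAG1 folds of 6.72 and 6.44, STAG2 folds of 5.97 and 7.20 in WT and 4.80 and 5.10 in STAG2-KD, and no CTCF. Others were near or in SLC30A3, GALNT11, CBLB, KLHDC7A, FABP6 and GPR149.

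An SLC30A3 intron at chr2:27487789-27488253 was of another kind, with strong CTCF beside the weak gain. SLC30A3 encodes a zinc transporter. Its STAG1 folds were 7.53 and 5.20, while CTCF was 38.5 and 19.4 in WT and 37.2 and 30.3 in STAG2-KD. SMC1A was 10.4 and 8.17 in WT and 11.3 and 9.90 in STAG2-KD. The site thus had CTCF and SMC1A in all 8 lists.

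CTCF and SMC1A were next compared between conditions, since neither entered the choice. A CTCF peak was present in replicate 1 at 36.1% of the 252 sites before and 39.7% after knockdown. Replicate 2 gave 55.6% and 56.3%. The means were 45.8% ± 13.7 in WT and 48.0% ± 11.8 in STAG2-KD (SD, n = 2 each), a difference of 2.18 percentage points that was smaller than the spread between replicates (two-sided exact permutation test, p = 0.667, adjusted p = 0.741 over 10 tests). An SMC1A peak was present in replicate 1 at 65.9% before and 75.4% after knockdown, and the shares of replicate 2 were 88.5% and 91.3%. The SMC1A differences were thus 9.52 and 2.78 points, while the means of 77.2% ± 16.0 and 83.3% ± 11.2 (SD, n = 2 each) did not differ beyond the spread between replicates (two-sided exact permutation test, p = 0.667, adjusted p = 0.741). With every list shortened to the same length the CTCF difference turned to −0.758 points. The SMC1A difference stayed positive under every alternative, from 3.39 points with replicate 2 alone to 11.7 with replicate 1 alone. With 2 libraries against 2, the smallest p this exact test allows is 0.333. A sign-flip of differences paired within replicates allows none under 0.5, so neither test could decide this.

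Peak strength gave the same picture. At the 80 sites with CTCF in all 4 lists the median CTCF percentile was 54.4 ± 10.7 in WT and 50.1 ± 8.99 in STAG2-KD (SD, n = 2 each, two-sided exact permutation test, p = 0.667, adjusted p = 0.741). At the 147 sites with SMC1A in all 4 lists the median SMC1A percentile was 54.1 ± 17.9 and 54.3 ± 16.1 (SD, n = 2 each, two-sided exact permutation test, p = 1, adjusted p = 1). Among those 147 the SMC1A level was higher in STAG2-KD in both replicates at 64 and lower in both at 40. Constant sites had a higher SMC1A level in both replicates at 71.1%. This level was a median log2 ratio of −0.00 and 0.13 at the 252 sites where both lists of a replicate had a peak (148 and 217 sites) and of 0.24 and 0.30 at constant sites.

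Few of the sites changed their SMC1A or CTCF peak in both replicates. SMC1A was gained at 7 (2.78%), against 1.69% of all union STAG1 sites, and lost at 2 (0.794%), against 0.637%. CTCF was gained at 1 (0.397%), against 0.469%, and lost at 3 (1.19%), against 0.462%. These counts are small, and the SMC1A shares lay near the background. The strongest SMC1A gain was in an intron of a long noncoding RNA gene at chr18:42686198-42686683, 107 kb from SLC14A2, with SMC1A folds of 5.38 and 5.35, STAG1 folds of 6.06 and 4.29 and STAG2 folds that were 3.48 and 3.13 in WT and 5.83 and 5.87 in STAG2-KD. The next 4 were near HCAR2, at the FYCO1 start, and in CCDC93 and TMEM64. The CTCF gain lay 249 kb from AGAP1, with CTCF folds of 4.43 and 2.94. SMC1A was lost in introns of FBXL7 and PRELID2, and CTCF at the ZBTB20 start, at a noncoding start 22.8 kb from IFT22 and 520 kb from PTPRC (these 5 were picked after their values were seen).

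Compared with other sets of sites, the 252 stood between extremes. Their CTCF share was lower than that of constant sites in each of the 4 CTCF lists, by 39.9 to 58.1 percentage points with a mean difference of −48.4. The 143 sites that lost STAG2 in both replicates and gained STAG1 had CTCF at 45.5% and 65.0% in WT and 44.8% and 58.0% in STAG2-KD, so the 252 sites were 1.69 to 9.48 points lower. This mean difference of −6.40 points turned to 4.39 with the sites of replicate 1 alone and was −3.53 with those of replicate 2 alone, and it went to −13.2 with the stricter threshold and to −12.7 for sites away from WT STAG1 peaks. Against the 161 sites with STAG2 in all 4 lists and STAG1 in none, the 252 sites were 13.8 to 17.9 points higher. Each of these differences had 1 direction in 4 of 4 lists, and the two-sided exact sign-flip permutation test gave p = 0.125 for each, the smallest it allows, with an adjusted p of 0.208 over the 10 tests. None of them thus passed the threshold, which the design cannot reach. The lists of WT and STAG2-KD in a replicate are not independent, as they share its protocol.

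SMC1A was found less often at the lost STAG2 sites than at the 252. Lost STAG2 sites that gained STAG1 had SMC1A at 21.7% and 48.3% in WT and at 25.2% and 46.2% in STAG2-KD, which was 40.2 to 50.2 points below the 252 sites. Constant sites were 7.64 to 26.0 points above them, and STAG2 sites without STAG1 were 5.56 to 19.5 points below them. These 3 mean differences, 44.9, −15.6 and 12.1 points, also gave p = 0.125 by the two-sided exact sign-flip permutation test and an adjusted p of 0.208, with 1 direction in 4 of 4 lists. The first fell to 26.3 and 23.1 points with the sites of replicate 2 or 1 alone. The last fell to 4.66 (exact p = 0.375) with the stricter threshold, 6.08 (exact p = 0.5) with lists of the same length and 6.39 with replicate 1 alone, and the direction no longer held in all 4 lists under the first 2 of these. STAG2, which differs between these sets by their definition, is itself a cohesin subunit, so the sets were not chosen blind to cohesin.

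**Figure D2:**
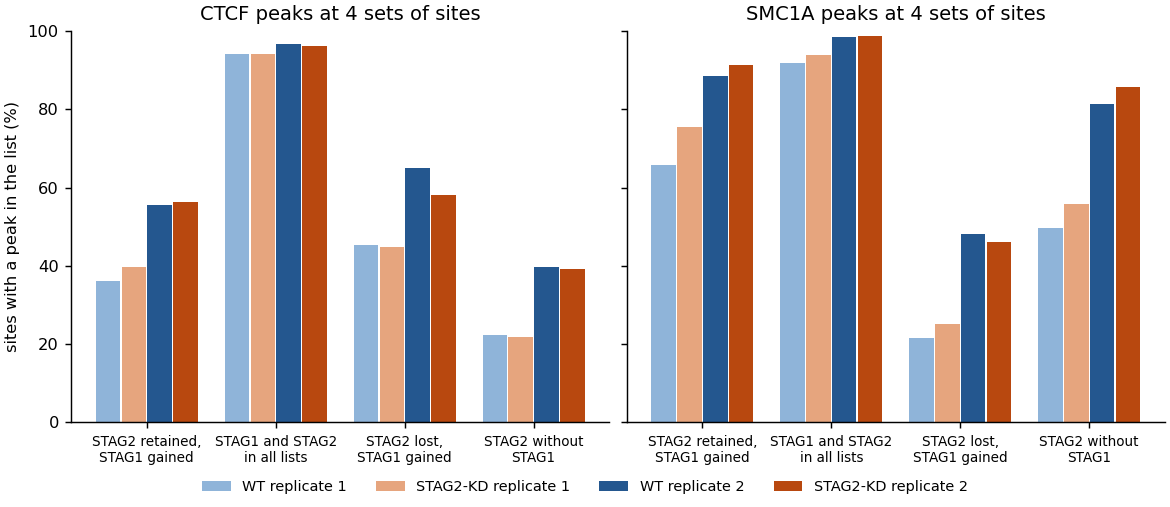
Share of sites (%) with a CTCF peak (left) or an SMC1A peak (right) in each of the 4 lists of that antibody, for the 252 sites, the 44566 constant sites, the 143 sites that lost STAG2 and gained STAG1, and the 161 STAG2 sites without STAG1; bars are single libraries. At the 252 sites the bars of WT and STAG2-KD of a replicate differ by at most 9.52 points, and both replicate 2 bars are above those of replicate 1.

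The 252 sites were mixed in their CTCF. No CTCF list had a peak at 97 of them (38.5%, 95% Wilson interval 32.7 to 44.6), all 4 had one at 80 (31.7%), and 75 lay in between. Over all union STAG1 sites the shares with no CTCF list and with all 4 were 24.9% and 52.6%. Over all STAG1 sites gained in both replicates they were 42.0% and 22.1%, so the share without CTCF was near that of gained sites in general. SMC1A was in all 4 of its lists at 147 (58.3%, Wilson interval 52.2 to 64.3) and in none at 14. The share with SMC1A in all 4 was 48.1% over the union and 15.4% over all gained STAG1 sites. CTCF and SMC1A were both in all their lists at 53 sites, 45 sites had SMC1A in all lists and no CTCF, and 3 had neither in any list. The 97 sites without CTCF had SMC1A in all lists at 46.4%, and the 80 with CTCF in all lists at 66.3%. STAG1 gains were alike in the groups, with median folds of 4.28 and 3.01 at sites without CTCF and 4.39 and 3.20 at sites with CTCF in all lists. These intervals cover counting error only.

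**Figure D3:**
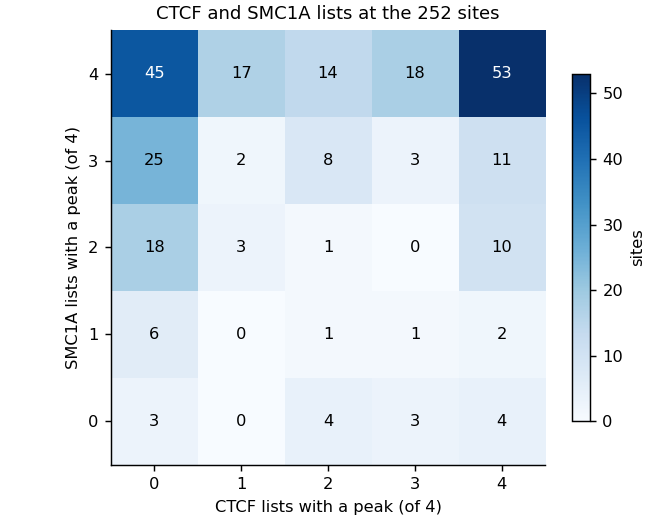
Number of the 252 sites by how many of the 4 CTCF lists (x axis) and of the 4 SMC1A lists (y axis) had a peak; darker cells hold more sites. The most filled cells are 53 sites with all 8 lists and 45 with all SMC1A lists and no CTCF.

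The strongest site without CTCF at a promoter was at chr15:67417857-67418147, 52 bp from an annotated start of SMAD3, the transcription factor of TGF-beta signalling. Its STAG1 folds in STAG2-KD were 6.96 and 3.56 (26 and 28 fragments). STAG2 was 4.57 and 3.01 in WT and 3.44 and 3.64 in STAG2-KD, with 20 and 30 fragments and 13 and 30 fragments. SMC1A was absent from the list of WT replicate 1, at 3.10 in WT replicate 2, and at 5.08 and 4.53 in STAG2-KD. The other leading sites without CTCF were the chromosome 7 intron printed above and sites near CBLB, an E3 ubiquitin ligase gene, FABP6 and SLC14A2.

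Promoters made up a large part of the 252 sites. A site midpoint within 1 kb of an annotated transcript start was found at 124 (49.2%, Wilson interval 43.1 to 55.3), against 21.6% of constant sites, 13.3% of the lost STAG2 sites that gained STAG1 and 22.5% of all union STAG1 sites. STAG2 sites without STAG1 were at promoters more often still, at 63.4%. A further 71 sites were in introns (28.2%), 51 were intergenic (20.2%) and 6 were in exons. The median distance to the start of a protein-coding transcript was 2.59 kb, against 16.1 kb for constant sites. The share of promoters among gained STAG1 sites rose with the number of STAG2 lists that held a peak, from 14.3% with 0 lists over 19.5%, 24.4% and 29.4% to 49.2% with 4. By the lists of replicate 2 alone the promoter share was 31.7%, and by those of replicate 1 alone it was 51.3%. Promoter sites were mostly sites with CTCF: 22.7% of the sites without CTCF were at promoters, 68.0% of those with CTCF in 1 to 3 lists and 63.8% of those with CTCF in all lists.

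**Figure D4:**
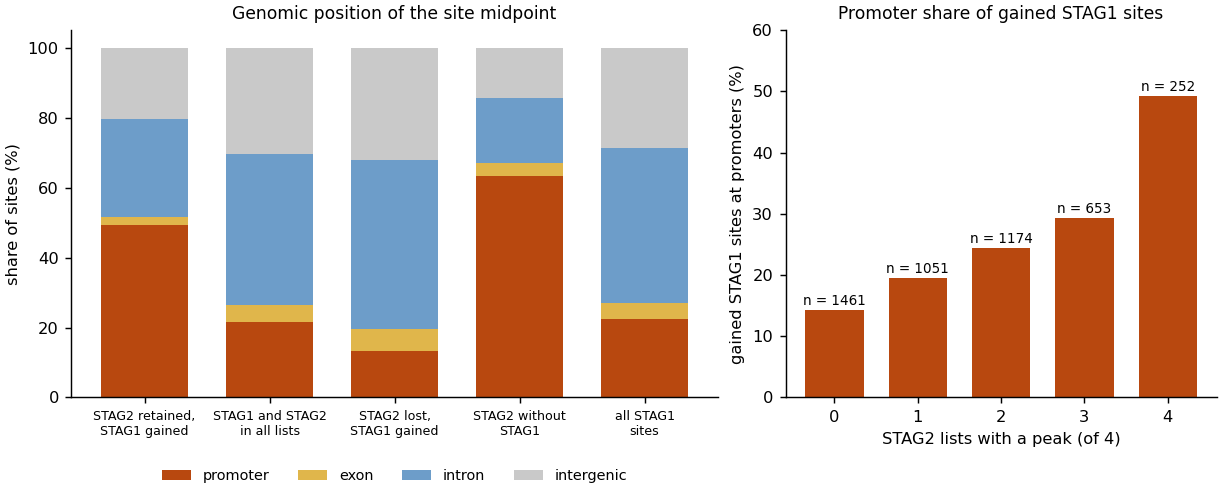
Left, share of sites (%) by position of the site midpoint for the 252 sites, 3 comparison sets and all union STAG1 sites; right, share (%) of the STAG1 sites gained in both replicates that were at promoters, by the number of STAG2 lists with a peak, with the number of sites above each bar. The right-hand bars go from 14.3% to 49.2%, the last being the 252 sites.

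The sites lay within 1 kb of a start of 134 protein-coding genes. Where a site was at a coding start, starts on both strands were present at 17 of 114 (14.9%), against 12.6% (12 of 95) at STAG2 sites without STAG1, 7.78% at constant sites and 9.16% at all union STAG1 sites. Among the 10 strongest promoter gains after SMAD3 were B3GNTL1, LARP1, TUBB4B, DAD1, UBE3B, ZNF827 and FOXJ2. LARP1 encodes an RNA-binding protein that controls the translation of ribosomal protein mRNAs. Its promoter site at chr5:154135207-154135590 had STAG1 folds of 5.20 and 4.66, STAG2 folds of 5.55 and 10.4 in WT and 4.67 and 5.67 in STAG2-KD, and SMC1A in all 4 lists (6.90 and 9.21 in WT, 5.21 and 4.93 in STAG2-KD). Both STAG2 and SMC1A were lower in STAG2-KD in both replicates there. CTCF at this site was listed at 30.4 in WT replicate 2 but not in WT replicate 1, and at 6.62 and 7.26 in STAG2-KD.

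TUBB4B, a beta-tubulin gene, had no CTCF. Its site at chr9:140135691-140136419 had STAG1 folds of 5.95 and 3.65, STAG2 folds of 4.87 and 3.76 in WT and 5.98 and 4.21 in STAG2-KD, and SMC1A folds of 4.31 and 4.10 in WT and 7.04 and 3.39 in STAG2-KD. The STAG2 folds were thus higher after its knockdown in both replicates, though by 2 fragments (16 and 18) and 1 fragment (30 and 31). DAD1, a subunit of the oligosaccharyltransferase, had CTCF in all lists. At its start, chr14:23058466-23058991, STAG1 was 6.10 and 4.03, STAG2 4.69 and 4.05 in WT and 5.47 and 5.57 in STAG2-KD, and CTCF 16.0 and 20.5 in WT and 24.997 and 21.7 in STAG2-KD.

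At some promoters STAG2 enrichment was higher in STAG2-KD than in WT. This was looked for after the values were seen and is a description with no test. The values are signal of the STAG2 antibody, whose specificity at these promoters the peak lists do not show. The STAG2 level was at least 1.5-fold higher in both replicates at 17 of the 252 sites (6.75%), against 1.27% of the 50010 STAG2 sites with a peak in all 4 STAG2 lists, and at least 1.5-fold lower in both at 13 (5.16%), against 4.03%. Of the 17, 15 were at promoters (88.2%), and so were 85.1% of the 636 such sites among all 50010. Of the 13, 4 were at promoters. The median STAG2 ratio of the 17 was 2.59 and 2.16, while the SMC1A ratio, where both lists had a peak, had a median of 1.17 and 1.24. STAG2 sites without STAG1 showed the rise at 31 of 161 (19.3%) and constant sites at 0.574%.

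GPATCH3 and NUDC, which share a promoter, came second of the 17 by the smaller of their replicate ratios, after VCPIP1 (3.95 and 3.20). At chr1:27226813-27227036 the STAG2 peak had 48 fragments in each WT library and 173 and 148 in STAG2-KD, a level ratio of 3.79 and 2.99. STAG1 had 12 and 22 fragments there, and SMC1A 14 and 22 in WT and 18 and 31 in STAG2-KD, so neither came near the STAG2 value. CENPT, which encodes a centromere protein, had 41 and 43 STAG2 fragments in WT and 135 and 109 in STAG2-KD, a ratio of 3.46 and 2.46. No CTCF list had a peak at either promoter. BZW1 went from 19 and 36 to 55 and 104 fragments and ZNF649 from 19 and 27 to 67 and 75. BZW1 also had SMC1A at 13 and 87 fragments in WT and 88 and 118 in STAG2-KD.

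The sequence under the summits also differed between the groups. The CTCF core motif was searched on both strands in 201 bases, centred at the 252 sites on the STAG1 summit of STAG2-KD replicate 1. STAG2 sites without STAG1 have no such summit, and only 77553 of the 117507 union sites have one, so windows without one were centred elsewhere. The motif was at 4 of the 252 sites (1.59%), against 26.5% of constant sites, 11.2% of lost STAG2 sites that gained STAG1 and 11.9% of all union STAG1 sites. The share was as low at STAG2 sites without STAG1 (1.24%), 4.82% at the sites that missed the rule by 1 WT STAG1 list and 0.794% at windows 5 kb away. Of the 80 sites with CTCF in all 4 lists, 3.75% had it. Centring on the CTCF summit instead did not change this: 5 of the 100 CTCF summits in STAG2-KD replicate 1 at these sites had the motif (5.00%), against 28.3% at constant sites, 20.6% of all CTCF peaks of that list and 2.86% at STAG2 sites without STAG1. The core is short, degenerate and missed at most CTCF peaks, so the shares serve for comparison only.

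GC content went with CTCF and with promoter position. The median was 46.3% at sites without CTCF, 65.7% at sites with CTCF in 1 to 3 lists and 66.9% at those with CTCF in all 4, against 47.8% at constant sites and 44.3% at windows 5 kb away. It was 69.2% at the 124 promoter sites and 46.8% at the 128 sites away from promoters. CTCF and promoter position overlap here, and their separate parts were not tested. A GC box, GGGGCGGGG on either strand, was at 7.14% of the 252 sites, 9.32% of STAG2 sites without STAG1, 6.27% of the sites that missed the rule by 1 WT STAG1 list and 2.28% of all union STAG1 sites, and within the 252 at 12.5% of sites with CTCF in all lists and 1.03% of sites without. At the 124 promoter sites it was at 12.9%. CACGTG, the E-box that MYC and MITF bind, was at 19 of the 252 sites (7.54%), against 2.93% of all union STAG1 sites and 1.98% at 5 kb. STAG2 sites without STAG1 had it at 7.45%, and the sites that missed the rule by 1 WT STAG1 list at 4.68%. Within the 252 it was at 10.5% of the promoter sites and 4.69% of the sites away from promoters. In all, 9 motifs were searched on both strands, and the other 5 lay nearer to the union or were rare. GGAATG (TEAD) was at 11.9% of the 252 sites and 11.9% of all union STAG1 sites, ACAAAG (SOX) at 14.3% and 15.7%, CCGGAAG (ETS) at 3.17% and 1.96%, the interferon-response core at 1.98% and 3.14%, and the NRF1 motif at 0.794% and 0.114%.

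The AP-1 core TGANTCA was found mainly in the sites without CTCF. It was at 26 of those 97 (26.8%), at 6.67% of sites with CTCF in 1 to 3 lists and at 5.00% of sites with CTCF in all 4, against 5.56% at windows 5 kb away and 10.6% of all union STAG1 sites. This share was close to that of other CTCF-free sites, which was 21.2% over the union, 28.3% over those gained in both replicates and 27.1% over constant ones. By position, the AP-1 core was at 28 of the 128 sites away from promoters (21.9%) and at 7 of the 124 promoter sites (5.65%). AP-1, the FOS and JUN dimer, is a common factor at active enhancers. A match is a run of letters and not a measured binding site.

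**Figure D5:**
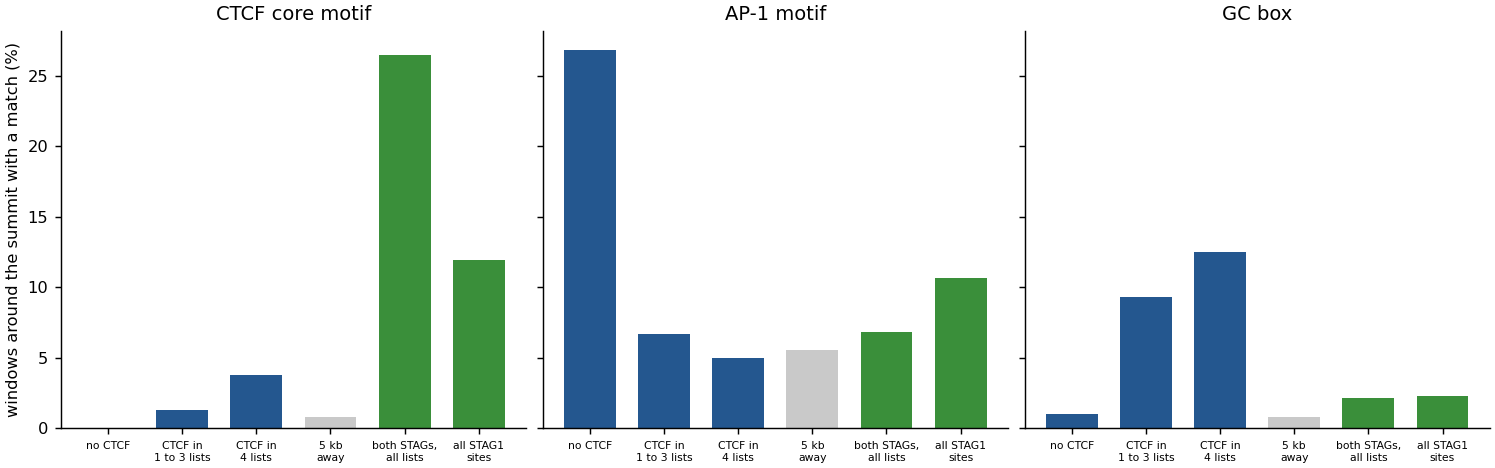
Share (%) of 201 bp windows with a match to the CTCF core motif, the AP-1 motif or the GC box, for the 252 sites split by CTCF (blue), windows 5 kb away (grey), and constant sites and all union STAG1 sites (green). The CTCF core bars of the 252 sites are at most 3.75% against 26.5% for constant sites, and the AP-1 bar of sites without CTCF is 26.8%.

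The gained STAG1 summits were less well aligned with the other peaks than at constant sites. The median distance from the STAG1 summit of STAG2-KD replicate 1 to that of replicate 2 was 64 bp, against 35 bp at constant sites, and 64 to 94.5 bp to the 4 STAG2 summits, against 13 to 37 bp. A WT STAG1 peak lay within 500 bp of 44 sites (17.5%), and at 48 (19.0%) a STAG2 peak of the site also overlapped a WT STAG1 peak, so some sites border a place where STAG1 was already present. The sites were scattered, with a median of 5.89 Mb between neighbours and 3 neighbouring pairs within 50 kb.

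Genes of pathways studied in this model were largely without such a site within 10 kb. Over all protein-coding genes, 255 of 20090 (1.27%) had one. Among 22 interferon-stimulated genes GBP1, an interferon-induced GTPase gene, had one, and none was found at 18 interferon signalling genes, 15 cohesin genes and regulators, 18 melanocyte lineage genes, 16 genes of the dedifferentiated state, 18 MAPK feedback genes or 18 melanoma driver genes. At 1.27%, lists of this size would hold few or no sites. The GBP1 site at chr1:89538178-89538523 lay 7.31 kb from its start, with STAG1 folds of 4.27 and 3.42 in STAG2-KD. STAG2 there was 6.45 and 5.46 in WT and 4.07 and 4.08 in STAG2-KD, lower in both replicates. CTCF was 4.62 and 4.82 in WT and 10.8 and 4.74 in STAG2-KD, and no SMC1A list had a peak.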

How the data were processed

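ChIP-seq libraries of M14 cells were aligned to hg19 by the authors who then ran MACS2 with the input as control for each library separately. The submitters' processing notes name Bowtie2 and MACS2 for replicate 1, and CASAVA 1.4, BWA, SAMtools, Picard, MACS2 and deepTools for replicate 2, while the study's methods name bowtie2, so the aligner of replicate 2 is uncertain. Each deposited list gives a whole-number score, a fold enrichment (the ratio of the summit pileup to the local background), a −log10 p-value and a −log10 q-value. The score that the authors deposited is 10 times a −log10 value, truncated, of q in replicate 1 but of p in replicate 2, and the lists were limited at 2 on those scales, so replicate 2 reaches weaker peaks. Peaks outside chromosomes 1 to 22 and X were left out (3.02% to 4.76% and 0.145% to 0.298%).

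Groups follow the sample titles. Union sites were formed by merging overlapping STAG1 peaks, and presence was an overlap of at least 1 bp. Gained meant a peak in both STAG2-KD and neither WT list, and is a call on presence, not a test of differential binding. The 4 input libraries have no list. Fragments at a summit were solved from the fold and p-value columns, and a solution was found for 90.1% to 100% of peaks. Whether solutions were whole fragments, within 5% of a fragment, was checked only for peaks at the lowest background of each list. In a simulation of 20000 sites, 200 of 200 sites planted in the lists that the rule asks for were found. The simulation had no peak threshold and no counting noise in presence, so it checks the code and not the power of detection. Depth is given as mean fragment coverage, and fragments are not known to be independent molecules, so intervals cover counting error only.

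Shares and median percentiles were compared by exact permutation over libraries, and site sets by sign-flip over the 4 lists of an antibody, with Benjamini-Hochberg adjustment over 10 tests. The labels tie libraries of the same number to 1 protocol, and deviations of same-numbered libraries correlated at 0.133 (STAG1), 0.397 (STAG2), 0.480 (CTCF) and 0.375 (SMC1A) over the union sites. The sites, comparison sets, motifs and gene lists were chosen with earlier results of these data known. Named sites were the 10 with the lowest sum of STAG1 ranks over both STAG2-KD lists, the 10 such sites within 1 kb of a coding start, the 5 leading SMC1A or CTCF gains, the 5 leading sites without CTCF, the 3 nearest each edge of the rule, and sites within 10 kb of a listed gene. Some of these are mentioned without values, and 1 is not reported here. Annotation was GENCODE release 44 lifted to GRCh37, the build of the lists. Python 3.11.15, numpy 2.4.6, pandas 2.3.3, scipy 1.17.1, pysam 0.24.0 and samtools 1.23.1 were used. Alternatives were another overlap, stricter, common or equal-length lists, sites away from WT STAG1 peaks, each replicate alone and a replicate block.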

Additional observations from a re-analysis of the deposited data

How the results depend on the processing

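The number of sites depended on the threshold and above all on asking for both replicates: it was 252 as reported, 570 with a −log10 q of at least 5 in every list, 521 with a common −log10 q of at least 2 (chosen after seeing the data), and 4916 to 6546 with the lists of 1 replicate alone. The cause of each change was not tested, except that a single replicate asks for fewer lists. Equal numbers of peaks from every list turned the difference in CTCF share to −0.758 points, in median CTCF percentile to 0.729 and in median SMC1A percentile to −1.60. With 1 replicate alone these 3 ranged from −0.855 to 3.52 points, from −4.10 to 3.88 and from −0.0306 to 4.61, so none of them has a settled direction, and the CTCF share minus that of lost STAG2 sites ranged from −3.53 to 4.39. The promoter share moved to 36.97% with equal lists and 41.3% without sites within 500 bp of a WT STAG1 peak, and was 31.7% to 51.3% with 1 replicate. The share without CTCF moved to 53.0% with equal lists and was 46.2% to 52.2% with 1 replicate. The share with SMC1A in every list moved to 46.7% with the stricter threshold and 51.8% with equal lists, and was 67.7% to 69.7% with 1 replicate, where 2 lists decide it. These 3 shares under alternatives were also added after seeing the data. With the replicate block the differences were 2.18 and 6.15 points for CTCF and SMC1A share and −4.28 and 0.256 for the percentiles. These equal the values without it by construction, since the block alters the test and not the difference. They nevertheless count as kept in the tally that follows. The smallest p it allows is 0.5, so it could not change a call. The direction was kept, or a count or share stayed near its value, in 81 of the 102 values computed, several of which changed in size: the SMC1A share minus that of lost STAG2 sites was 23.1 to 26.3 points with 1 replicate, and minus that of STAG2 sites without STAG1 it was 4.66 with the stricter threshold.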
